A study of Mus musculus with 3 samples.

Results

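Genes of glutathione and peroxide defence were followed across the immune cells of the mouse small-intestinal muscularis, the muscle layer of the gut wall. They were *Slc7a11*, *Gsr*, *Mgst1*, *Prdx1* and *Msrb1*, chosen by name and found as 5 of the 14148 genes in the count tables. The cells were CD45+ cells, which are leukocytes, sorted from the peeled muscularis externa of wild-type C57BL/6J mice aged 12 weeks. One library came from naïve mice, one from mice 24 h and one from mice 72 h after intestinal manipulation (IM), a surgical handling of the bowel that inflames the muscularis. The libraries held 652, 2211 and 1239 cells, and all mice were wild-type without a transgene. Each library pooled several mice, so there was 1 library per time point, no difference between time points has a replicate check, and no p-value is given. Levels are given as CPM: the unique molecular identifiers (UMIs, 1 per captured RNA molecule) of a gene were summed over a group of cells and scaled to a library of 1000000 UMIs. Intervals are exact 95% intervals that cover counting error only, not the spread between mice.

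Glutathione and thioredoxin are the main thiol systems with which cells remove hydrogen peroxide and repair oxidised molecules. Phagocytes such as neutrophils and Mφs make oxidants on purpose and therefore depend on these systems themselves. *Slc7a11* encodes xCT, the cystine-glutamate exchanger that brings in the cystine needed for glutathione synthesis. *Gsr* encodes glutathione reductase, which returns oxidised glutathione to its reduced form with NADPH. *Mgst1* encodes a membrane-bound glutathione transferase and peroxidase, and *Prdx1* encodes peroxiredoxin 1, which reduces peroxides with electrons from thioredoxin. *Msrb1* encodes a selenium-containing methionine sulfoxide reductase that repairs oxidised methionine. *Slc7a11*, *Prdx1* and other genes of this group are known targets of the transcription factor Nrf2, and *Slc7a11* is also a known target of Atf4.

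In the GRCm38 mouse genome all members are annotated as protein-coding genes. *Slc7a11* lies on chromosome 3 from 49892526 to 50443614 on the minus strand. *Prdx1* lies on chromosome 4 from 116685544 to 116700822, *Mgst1* on chromosome 6 from 138140316 to 138156755, *Gsr* on chromosome 8 from 33652523 to 33698163, and *Msrb1* on chromosome 17 from 24736642 to 24742778, all on the plus strand.

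The promoter letters are shown for *Slc7a11* and *Prdx1* because both are known Nrf2 targets and were highest together in small groups of cells described later, and because known binding elements of stress factors were found there. Promoters came from RefSeq (build GRCm38.p6), and 4 of the 5 members matched, *Gsr* having no entry. Distances are counted from the RefSeq starts, which differ from the gene coordinates given above, taken from GENCODE. The 250 bases before each start were searched on both strands for the Nrf2-Maf element TGACNNNGC, the C/EBP-Atf element TGATGNAA and the AP-1 element TGANTCA. Of 32851 mouse promoters, 10.2% held the first, 3.45% the second and 6.75% the third. In *Slc7a11* the C/EBP-Atf element occurred 2 times, at 66 to 59 and at 47 to 40 bases before the start, and the other elements did not occur. In *Prdx1* the Nrf2-Maf element occurred on the reverse strand at 133 to 125 bases before the start. An AP-1 element overlapped it at 131 to 125 bases, and another stood at 237 to 231 bases. *Mgst1* held 1 Nrf2-Maf element in 1 of its 2 listed promoters, and *Msrb1* held none of these elements in this window. A match is a description of the letters and not evidence of binding. Capitals mark the C/EBP-Atf elements in the *Slc7a11* stretch (chr3:50443628-50443704, minus strand) and the Nrf2-Maf element in the *Prdx1* stretch (chr4:116685441-116685499, plus strand).
Slc7a11: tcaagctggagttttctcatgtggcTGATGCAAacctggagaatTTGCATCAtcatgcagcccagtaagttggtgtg
Prdx1: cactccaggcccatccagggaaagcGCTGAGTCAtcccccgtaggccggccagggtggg

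The cells were clustered again without using the members or the other genes of their pathway, and 18 clusters were found. Clusters were named from marker genes as monocyte/Mφ-like (140, 1542 and 577 cells in the naïve, 24 h and 72 h libraries), neutrophil-like (13, 409 and 111 cells), dendritic cell-like (18, 121 and 133 cells), T cell-like (188, 71 and 136 cells) and B cell-like (279, 38 and 79 cells). A cluster led by *Siglecf*, *Ptgs2* and *Mmp9* (14, 30 and 203 cells) was left without a cell type name, because it held neutrophil markers together with *Siglecf*. It is called the *Siglecf Ptgs2* cluster. The B cell-like class joins a B cell cluster (228, 32 and 43 cells) with a cluster of dividing cells led by *Pclaf*, *Stmn1* and *Top2a* (51, 6 and 36 cells). In the dividing cells at 72 h the B cell markers summed to 881 CPM and the monocyte/Mφ markers to 4278 CPM. The T cell-like class includes a cluster (59, 65 and 108 cells) that also showed 5 of 8 markers of NK cells or innate lymphoid cells. Levels are compared only for groups of at least 20 cells in a library. *Msrb1* is among the genes the study lists for a neutrophil cluster, but it was not used to name clusters here. Naïve monocyte/Mφ-like cells were mainly Cx3cr1+ and Cd206+ Mφ-like, those at 24 h mostly Fabp5+, Ly6c+ and *Cxcl3 Arg1* cells, and those at 72 h mostly Cd206+ and Timp2+ Mφ-like, so a class level joins different clusters at each time. Depth differed too, with a median of 2134.5, 4669 and 3295 UMIs per cell in the libraries, and each pair of libraries shared 1 cell barcode.

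The members fell into different cellular patterns. *Slc7a11*, *Gsr* and *Msrb1* were highest in neutrophil-like cells, *Prdx1* was highest in monocyte/Mφ-like cells at 24 h, and *Mgst1* was found in neutrophil-like and monocyte/Mφ-like cells and was close to absent from lymphocytes. The plot of CPM by cell class and library shows these patterns.

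**Figure D1:**
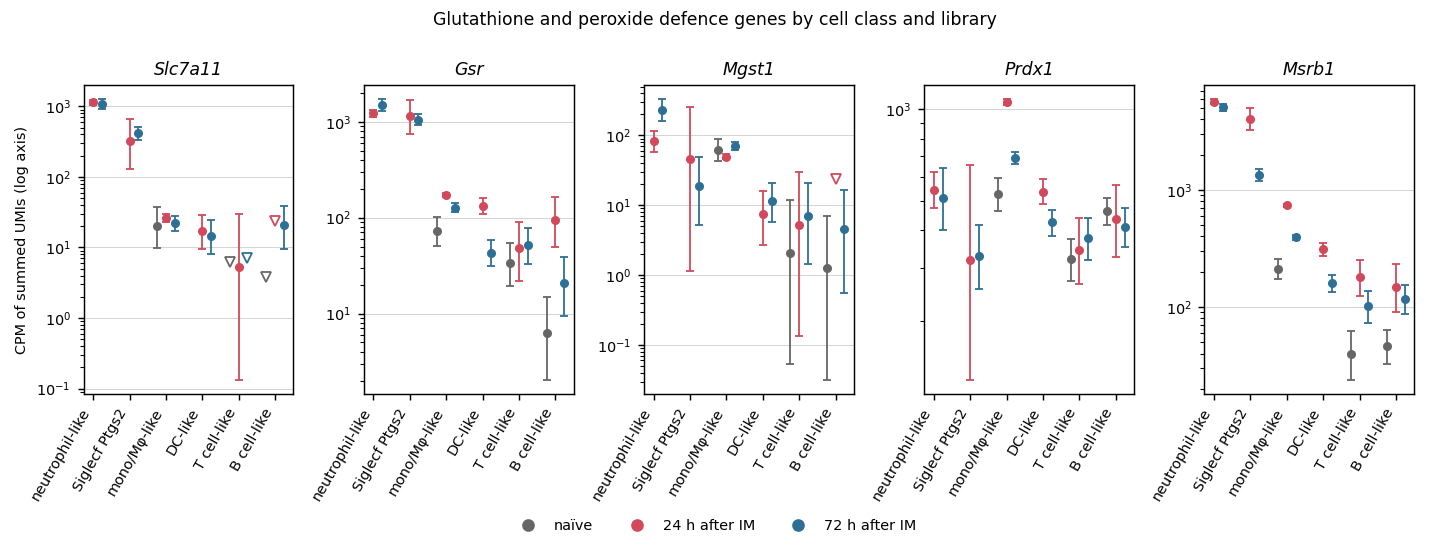
CPM of summed UMIs (log axis) of the 5 genes in each cell class, by library. Points are group levels with exact 95% Poisson intervals (counting error only), and open triangles mark groups with 0 UMIs at the level of 3 UMIs. *Slc7a11* in neutrophil-like cells stood at 1138 CPM at 24 h and 1067 CPM at 72 h, against 25.9 and 22.1 CPM in monocyte/Mφ-like cells.

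*Slc7a11*, the cystine importer, was read in neutrophil-like cells at 1138 CPM at 24 h (interval 1036 to 1246) and 1067 CPM at 72 h (906 to 1249). In the *Siglecf Ptgs2* cluster it was at 319 CPM (128 to 658) and 414 CPM. Monocyte/Mφ-like cells had 20.2 CPM in the naïve library (9.71 to 37.2), 25.9 CPM at 24 h (22.7 to 29.5) and 22.1 CPM at 72 h (17.1 to 28.0). The intervals of these 3 monocyte/Mφ levels overlapped, and those of neutrophil-like cells lay far above them. Dendritic cell-like cells had 17.3 CPM at 24 h and 14.8 CPM at 72 h, close to the monocyte/Mφ level. No UMI was found in 188 naïve T cell-like cells, which allows a share of up to 1.94% of cells with a UMI, nor in 136 T cell-like cells at 72 h. Naïve and 24 h B cell-like cells also had none. The 9 UMIs of B cell-like cells at 72 h all lay in the dividing cells, 8 of them in a single cell.

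*Slc7a11* was detected in 44.3% of neutrophil-like cells at 24 h and 55.9% at 72 h. These cells were shallow, with medians of 893 and 1248 UMIs, against 5940.5 and 5288 in monocyte/Mφ-like cells, where it was detected in 8.37% and 6.07%. With every cell thinned to 500 UMIs the shares were 32% and 32.4% in neutrophil-like cells and 1.56% and 1.21% in monocyte/Mφ-like cells. Of 13 naïve neutrophil-like cells, too few to compare, 12 held the 24 *Slc7a11* UMIs and 12 held the 86 *Msrb1* UMIs. The same cells held 15 *Gsr*, 5 *Mgst1* and 4 *Prdx1* UMIs.

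*Gsr*, which regenerates glutathione, was at 1222 CPM in neutrophil-like cells at 24 h (1116 to 1334) and 1494 CPM at 72 h (1302 to 1707). The *Siglecf Ptgs2* cluster had 1140 CPM (738 to 1683) and 1051 CPM (917 to 1199), so at 24 h it could not be told from neutrophil-like cells by counting error. Monocyte/Mφ-like cells had 72.9, 171 and 127 CPM in the naïve, 24 h and 72 h libraries. Lower levels were found in dendritic cell-like cells (133 CPM at 24 h, 43.2 CPM at 72 h) and T cell-like cells (33.7, 47.7 and 51.9 CPM). The intervals of the 3 T cell-like levels overlapped. B cell-like cells had 6.31 CPM in the naïve library, 94.6 CPM at 24 h and 20.6 CPM at 72 h. The 24 h value rested on 12 UMIs, 9 of them in a single cell, and was 26.6 CPM without that cell. All 12 UMIs at 24 h and all 9 at 72 h lay in the dividing cells, and the B cell cluster itself held none at either time.

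*Msrb1*, the methionine repair enzyme, was at 5664 CPM in neutrophil-like cells at 24 h (5434 to 5900) and 5047 CPM at 72 h (4688 to 5425). It was detected in 96.6% and 94.6% of them. The *Siglecf Ptgs2* cluster had 4013 CPM at 24 h (3218 to 4944) but 1332 CPM at 72 h (1181 to 1498), a ratio of 0.332 (0.260 to 0.427). Monocyte/Mφ-like cells had 213, 737 and 393 CPM, dendritic cell-like cells 311 CPM at 24 h and 160 CPM at 72 h, and T cell-like cells 40.0, 180 and 101 CPM. In the T cell-like class the monocyte/Mφ markers summed to 471, 2095 and 1611 CPM. Its cluster that also showed NK or innate lymphoid markers made up 59 of 188, 65 of 71 and 108 of 136 cells. The part of either in the T cell-like *Msrb1* levels was not tested. B cell-like cells had 46.7, 150 and 117 CPM and a UMI in 11.1%, 31.6% and 32.9% of cells at median depths of 1861, 1707 and 3272 UMIs. The B cell cluster without the dividing cells was taken as the background of free RNA. It had a *Msrb1* UMI in 6.14%, 18.8% and 9.30% of cells, at 29.4, 87.3 and 60.9 CPM and median depths of 1728, 1641 and 2012 UMIs. The share in naïve monocyte/Mφ-like cells was 30% at a median of 3310 UMIs, with an interval of 22.6% to 38.3%, against 3.40% to 10.1% in the naïve B cell cluster.

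*Prdx1* was spread over all classes. Monocyte/Mφ-like cells had 524 CPM in the naïve library (462 to 592), 1057 CPM at 24 h (1036 to 1079) and 691 CPM at 72 h (662 to 721). Neutrophil-like cells had 543 CPM (474 to 620) and 509 CPM (400 to 640), and at 72 h 36.5% of their UMIs came from 1 cell, without which the level was 328 CPM. B cell-like cells had 461, 434 and 409 CPM, T cell-like cells 320, 345 and 375 CPM, and dendritic cell-like cells 535 CPM at 24 h and 424 CPM at 72 h. Within the B and T cell-like classes the intervals of the time points overlapped, whereas in monocyte/Mφ-like cells the 24 h interval lay above both others. In the naïve library the dividing cells of the B cell-like class had 748 CPM (656 to 849) and the B cell cluster 269 CPM (224 to 320).

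*Mgst1* was at 62.7, 49.8 and 70.4 CPM in monocyte/Mφ-like cells and at 83.9 CPM (58.1 to 117) and 234 CPM (162 to 327) in neutrophil-like cells at 24 h and 72 h. It was 2.79-fold higher at 72 h than at 24 h in neutrophil-like cells (1.68 to 4.63), although the value rested on 34 UMIs in each library. The *Siglecf Ptgs2* cluster held 1 UMI at 24 h and 4 UMIs at 72 h. T and B cell-like cells held 0 to 3 UMIs in each library.

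Neutrophil-like cells were compared with monocyte/Mφ-like cells of the same library, since both classes take part in the response to IM. At 24 h *Slc7a11* was 43.9-fold higher in neutrophil-like cells (37.4 to 51.6), *Msrb1* 7.69-fold higher (7.33 to 8.06) and *Gsr* 7.16-fold higher (6.45 to 7.92). *Mgst1* was 1.68-fold higher (1.15 to 2.39), and *Prdx1* was lower at a ratio of 0.514 (0.447 to 0.587). When shallow cells (under 500 genes) and those above 5% mitochondrial content were dropped, 79 neutrophil-like cells remained at 24 h, and the ratios were 3.32 for *Mgst1* and 0.248 for *Prdx1*. At 72 h the ratios were 48.4 for *Slc7a11* (36.1 to 65.3), 12.8 for *Msrb1* (11.7 to 14.1), 11.7 for *Gsr* (9.90 to 13.9), 3.32 for *Mgst1* (2.24 to 4.79) and 0.737 for *Prdx1* (0.576 to 0.929). With a line drawn at a 2-fold difference, 3 of 5 members were higher in neutrophil-like cells at 24 h and 4 of 5 at 72 h. With all cells kept, none was lower by that much. *Prdx1* was past the line at 24 h under the stricter filter (0.248). At 72 h it was also past the line without the single neutrophil-like cell noted above that held much of its UMIs. Among all genes with a mean of at least 25 CPM, 19.3% were at least 2-fold higher in neutrophil-like cells at 24 h and 31.4% at least 2-fold lower, and at 72 h 21.5% were higher and 28.2% lower. The members were chosen with earlier results of these data known, and the study lists *Msrb1* for a neutrophil cluster. Their counts beside these shares are thus a description only.

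The other 113 measured genes of glutathione, peroxide, thioredoxin and selenoprotein metabolism split in both directions. At 24 h 63 of them passed the 25 CPM filter, of which 20 were at least 2-fold higher and 22 at least 2-fold lower in neutrophil-like cells. The median ratio was 1.13, beside 0.81 over all genes tested. At 72 h 21 of 65 were higher and 23 lower, with a median of 0.73 beside 0.92. Lists drawn from earlier knowledge of Nrf2 and Atf4 targets, which include *Slc7a11*, held 8 of 15 and 4 of 6 tested genes that were at least 2-fold higher at 24 h. Among all genes tested the share was 19.3%. In the Nrf2 list *Keap1*, which encodes the inhibitor of Nrf2 (0.259), and *Slc48a1* (0.478) were lower, and in the Atf4 list none was lower.

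Genes of cystine uptake and glutathione synthesis went with *Slc7a11* in part. *Gclm*, the modifier subunit of the rate-limiting enzyme of glutathione synthesis, was 5.08-fold higher in neutrophil-like cells at 24 h (3.79 to 6.71). Much of this class value came from small clusters described later. *Gclm* at 24 h was at 259 CPM in a cluster led by *Acod1* (44 cells) and 483 CPM in one led by *Pdcd1lg2* (51 cells). In the largest neutrophil-like cluster (314 cells at 24 h) it was at 63.5 CPM at 24 h and 24.8 CPM at 72 h. *Cndp2*, a dipeptidase that frees cysteine, was lower at a ratio of 0.171. Around *Gsr*, *Taldo1* of the pentose phosphate pathway was 2.64-fold higher at 24 h, while *Tkt* of the same pathway (0.290), the NADPH-making *Idh1* (0.233) and *Idh2* (0.137), and the glutaredoxin *Glrx3* (0.205) were lower. In that list 2 of 12 tested genes, *Gsr* and *Taldo1*, were higher and 6 were lower, beside 19.3% and 31.4% of all genes tested.

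The peroxiredoxins other than *Prdx1* also divided. *Prdx5* was 2.20-fold higher in neutrophil-like cells at 24 h (2.06 to 2.34), whereas *Prdx2* was at a ratio of 0.166, *Prdx3* at 0.139 and *Prdx4* at 0.0517. The *Prdx4* ratio rested on 1 UMI in neutrophil-like cells and that of *Prdx3* on 4 UMIs. The glutathione peroxidases *Gpx1* (0.641) and *Gpx4* (1.38) stayed within 2-fold. Among the transferases, *Gstm1* was 6.60-fold higher and *Gstp1* was at 0.0591, the latter on 2 UMIs. Thioredoxin itself, *Txn1*, was 3.16-fold higher, its reductase *Txnrd1* 2.63-fold, and sulfiredoxin *Srxn1*, which repairs over-oxidised peroxiredoxins, 3.06-fold. The class values of *Gstm1*, *Txnrd1* and *Srxn1* were carried by part of the neutrophil-like cells. In the largest neutrophil-like cluster (314 of 409 cells at 24 h) they were at 21.2, 28.2 and 14.1 CPM, against 32.1, 35.7 and 16.1 CPM in monocyte/Mφ-like cells. At 72 h *Gstm1* was lower in neutrophil-like cells, at a ratio of 0.363 on 2 UMIs. *Msra*, which reduces the other stereoisomer of methionine sulfoxide, was 3.19-fold higher, so both tested methionine sulfoxide reductases were higher in neutrophil-like cells.

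Among selenium genes, *Sephs2*, which makes the selenium donor for selenoproteins such as that of *Msrb1*, was 3.70-fold higher, while *Selenow* (0.127) and *Selenop* (0.190) were lower. Of the Nrf2 list, *Osgin1* was 61.1-fold higher (43.1 to 88.0), the small Maf gene *Maff* 22.2-fold, the ferritin gene *Fth1* 4.31-fold and *Nfe2l2*, which encodes Nrf2, 3.31-fold. *Ddit3*, a target of Atf4, was 7.43-fold higher. Of the NADPH oxidase genes, *Rac2* (4.18-fold) and *Ncf1* (3.39-fold) were higher and *Cybb*, the catalytic subunit, was lower (0.291).

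**Figure D2:**
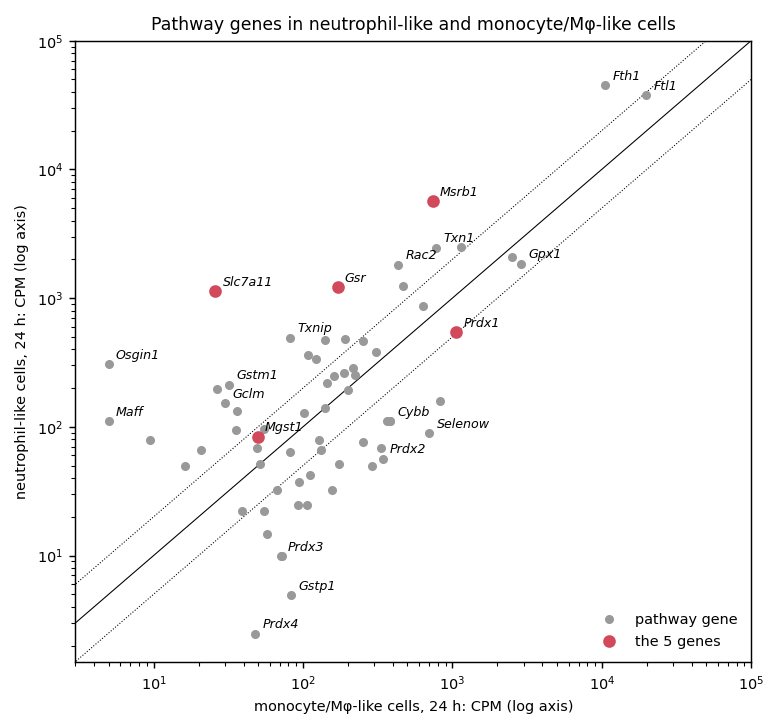
CPM in neutrophil-like cells (vertical, log axis) against CPM in monocyte/Mφ-like cells (horizontal, log axis) at 24 h for the pathway genes that passed the filter, with the 5 genes in red. The solid line marks equal levels and the dotted lines a 2-fold difference; *Slc7a11* and *Osgin1* lie farthest above the line, and *Prdx1* lies just inside the lower dotted line.

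The summed level of the 8 neutrophil markers was 75260 CPM in neutrophil-like cells at 24 h and 101550 CPM at 72 h. It was 1076 and 865 CPM in monocyte/Mφ-like cells of the same libraries and 136 CPM in the naïve ones, and 666 and 416 CPM of the former values were *S100a8*. The neutrophil markers in monocyte/Mφ-like cells thus moved with the time points. A list of genes raised by tissue handling was at 11219 and 10210 CPM in neutrophil-like cells and 2943 and 3616 CPM in monocyte/Mφ-like cells, and its part in the differences was not tested.

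Neutrophil-like cells of the 24 h and 72 h libraries were also compared. *Gsr* was 1.22-fold higher at 72 h (1.04 to 1.44), *Msrb1* was at a ratio of 0.891 (0.819 to 0.969), and *Slc7a11* (0.938, 0.777 to 1.13) and *Prdx1* (0.938) were within counting error. In this class *Mgst1* was thus the 1 member of 5 past the 2-fold line, beside 8.12% of all genes higher and 10.5% lower. Of 58 other pathway genes tested, 1 was higher and 7 were lower. Among them *Gstm1* (ratio 0.0649), *Osgin1* (0.315) and *Hmox1*, which encodes the haem-degrading enzyme haem oxygenase 1 (0.313), were lower at 72 h. The 24 h *Gstm1* level was carried by a cluster described next, where it was at 1376 CPM and which had no cells at 72 h. In the largest neutrophil-like cluster *Gstm1* was at 21.2 CPM at 24 h and 8.28 CPM at 72 h. *Prdx1* was lower at 72 h in that cluster, at a ratio of 0.438 (0.253 to 0.719) on 19 UMIs at 72 h. There *Slc7a11* was at 1.25 (0.990 to 1.57), *Gsr* at 1.15, *Msrb1* at 0.879 and *Mgst1* at 2.98. The 72 h *Prdx1* level of the class also included the single cell noted above that held much of its UMIs.

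The 3 neutrophil-like clusters and the *Siglecf Ptgs2* cluster differed in these genes. One was led by *Retnlg* and *Cxcr2* (314 cells at 24 h, 96 at 72 h), another by *Acod1*, *Il1f9* and *Hcar2* (44 cells at 24 h), and another by *Pdcd1lg2* and *Gstm1* (51 cells, all from the 24 h library). Since the last held cells of 1 library, it may stand for that library rather than for a cell type. These clusters were formed from the same cells, so their differences are a description, although the members were not used to form them.

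*Slc7a11* at 24 h was at 776 CPM in the *Retnlg Cxcr2* cluster, 1906 CPM in the *Acod1 Hcar2* cluster and 2074 CPM in the *Gstm1 Pdcd1lg2* cluster. Over the first of these, it was 2.46-fold higher in the *Acod1 Hcar2* cluster (1.96 to 3.07) and 2.67-fold higher in the *Gstm1 Pdcd1lg2* cluster. *Gsr* ran the opposite way, at 1449, 778 and 590 CPM. *Prdx1* followed *Slc7a11*, at 360, 671 and 1323 CPM, while *Msrb1* was high in all, at 5936, 4025 and 6203 CPM. In the *Retnlg Cxcr2* cluster at 72 h *Slc7a11* was at 969, *Gsr* at 1673, *Prdx1* at 157 and *Msrb1* at 5217 CPM.

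**Figure D3:**
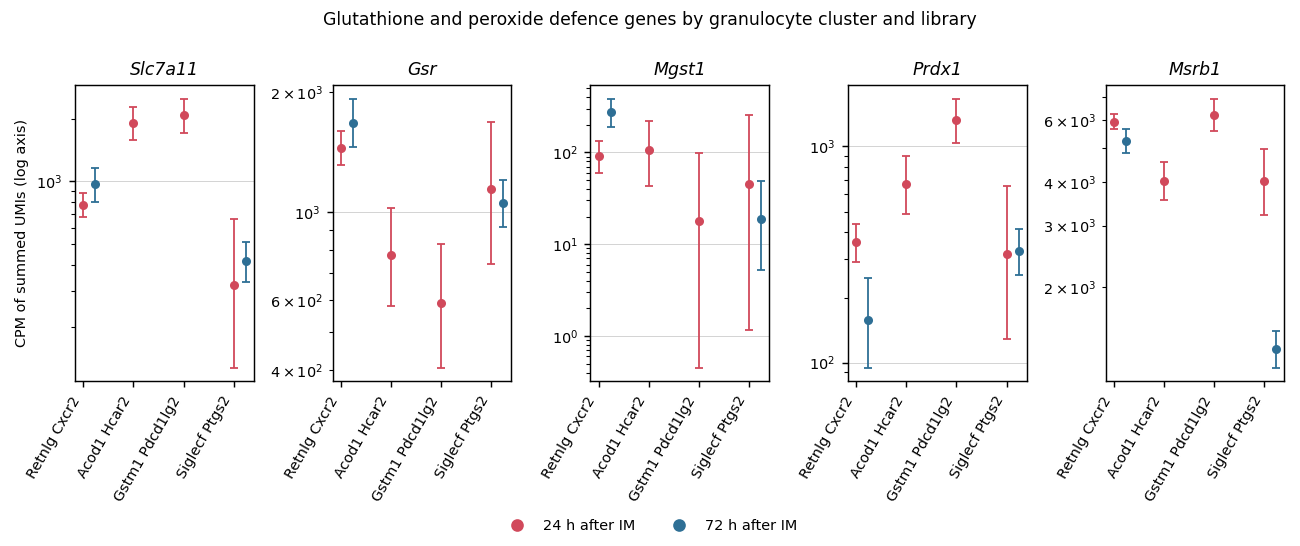
CPM of summed UMIs (log axis) of the 5 genes in the 3 neutrophil-like clusters and the *Siglecf Ptgs2* cluster, by library, with exact 95% Poisson intervals. *Slc7a11* and *Prdx1* stood highest in the *Gstm1 Pdcd1lg2* cluster (2074 and 1323 CPM), where *Gsr* stood lowest (590 CPM).

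The *Gstm1 Pdcd1lg2* cluster was set against the other neutrophil-like cells of the 24 h library, a comparison added after the clusters were seen. *Slc7a11* was 2.10-fold higher (1.69 to 2.60) and *Prdx1* 3.16-fold higher (2.36 to 4.21), *Gsr* was lower at a ratio of 0.446 (0.303 to 0.635), and *Msrb1* was at 1.11 (0.989 to 1.25). Of genes with a mean of at least 100 CPM, 19.7% were at least 2-fold higher in the cluster and 15.7% lower. Of the 36 other pathway genes tested, 13 were higher and 5 lower, with a median ratio of 1.5 beside 1.10 over all genes tested. The higher genes lay mainly in the Nrf2 list, where 9 of 11 tested genes, *Slc7a11* among them, were higher and none lower. They included *Srxn1* (6.24-fold, 2.33 to 16.7), *Txnrd1* (5.62-fold), *Gclm* (4.82-fold) and *Maff* (4.56-fold), and beside them stood *Gstm1*, at 1376 CPM against 25.8 CPM. *Slc3a2*, the partner chain of xCT, was 2.45-fold higher. The lower genes were *Gpx1* (0.233), the oxidase genes *Ncf1* (0.271) and *Rac2* (0.425), *Prdx5* (0.315) and *Glrx* (0.372). *S100a8*, an abundant neutrophil gene, was at 6364 CPM in this cluster against 36877 CPM in the *Retnlg Cxcr2* cluster, and *Retnlg* at 89.4 CPM against 3123 CPM. The cluster met the naming rule with 6 of 8 neutrophil markers, but it held 1 *Cxcr2* UMI. Its neutrophil markers summed to 15480 CPM, under the 25445 CPM of the unnamed *Siglecf Ptgs2* cluster at 24 h.

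At 72 h the *Siglecf Ptgs2* cluster had lower levels of every member than neutrophil-like cells, though for *Prdx1* this rested on a single neutrophil-like cell. Without that cell the *Prdx1* level of neutrophil-like cells equalled the 328 CPM of the cluster. The ratios were 0.388 for *Slc7a11* (0.295 to 0.507), 0.264 for *Msrb1* (0.229 to 0.303), 0.081 for *Mgst1* (0.021 to 0.228), 0.704 for *Gsr* (0.581 to 0.853) and 0.644 for *Prdx1* (0.457 to 0.907). Thus 3 of 5 were at least 2-fold lower, beside 11.8% of all genes with a mean of at least 100 CPM lower and 25.3% higher. Of 32 other pathway genes, 7 were higher and 8 lower. *Taldo1* (0.261), *Pgd* (0.290), *Txn1* (0.316) and *Ftl1* (0.361) were lower, and *Selenot* (2.99-fold), *Selenos* (2.94-fold) and *Atf4* (2.89-fold) were higher. In this cluster *S100a8* was at 18790 CPM at 72 h, *Cxcr2* at 219 CPM and *Siglecf* at 390 CPM, and the eosinophil genes *Ccr3*, *Prg2* and *Alox15* were at 0.

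In monocyte/Mφ-like cells, *Msrb1*, *Gsr* and *Prdx1* were higher at 24 h after IM than in the naïve library. *Msrb1* was 3.47-fold higher (2.86 to 4.25), *Gsr* 2.34-fold (1.68 to 3.36) and *Prdx1* 2.02-fold (1.78 to 2.29). *Mgst1* (0.794, 0.552 to 1.18) and *Slc7a11* (1.28, 0.684 to 2.71) were within counting error, and 7 of the 10 naïve *Slc7a11* UMIs came from 1 cell. With the highest cell of each group left out, the *Slc7a11* ratio was 3.97. Without a group of monocytes described below that carried much of the *Gsr*, the *Gsr* ratio was 4.48. Of the 4 members that passed the filter, 3 were at least 2-fold higher, beside 9.17% of all genes higher and 7.82% lower.

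Of 63 other pathway genes tested in that comparison, 9 were at least 2-fold higher and 4 lower, with a median ratio of 1.30 beside 1.10 over all genes. *Hmox1* was 3.58-fold higher (2.43 to 5.50), *Bach1*, which encodes a repressor of Nrf2 targets, 2.46-fold, *Prdx6* 2.48-fold, *Prdx2* 2.01-fold and *Txn1* 2.09-fold. *Txnip*, which encodes a thioredoxin-binding protein (0.285), and *Selenop*, a secreted selenium carrier (0.330), were lower. *Gpx1* (1.82) and *Ftl1* (1.94) stayed just within 2-fold.

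From 24 h to 72 h *Msrb1* was lower at a ratio of 0.533 (0.501 to 0.567), *Prdx1* at 0.654 (0.624 to 0.685) and *Gsr* at 0.745 (0.665 to 0.833), while *Mgst1* was 1.41-fold higher (1.2 to 1.67). *Slc7a11* was at 0.852 (0.640 to 1.12), or 0.524 when cells were taken by a gate on marker genes in place of clusters. None of the 4 tested members reached 2-fold, beside 3% of all genes higher and 3.46% lower. Of 62 other pathway genes, 3 were higher, namely *Gpx3* (3.22-fold), *Selenop* (2.80-fold) and *Txnip* (2.37-fold), and 3 were lower, namely *Prdx6* (0.441), *Keap1* (0.471) and *Glrx* (0.485). At 72 h *Msrb1* was still 1.85-fold above the naïve level (1.51 to 2.28), *Gsr* 1.75-fold (1.24 to 2.53) and *Prdx1* 1.32-fold (1.16 to 1.51). None of them reached 2-fold, beside 2.19% of all genes higher and 3.47% lower than in the naïve library. Of 61 other pathway genes 3 were higher, *Bach1* (3.80-fold), *Hmox1* (2.67-fold) and *Gstp1* (2.54-fold), and *Selenom* (0.468) was lower. The comparisons with 24 h and with the naïve library share libraries.

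The monocyte/Mφ-like cells were clustered once more into 9 clusters, and the members were highest in different ones. Clusters were named Ly6c+ monocyte-, Fabp5+, Cd206+, Timp2+ and Cx3cr1+ Mφ-like from genes the study names on these samples. Of the others, the cluster led by *Cxcl3* and *Arg1* and that led by *H2-DMb1* are called by those genes. A cluster of low UMI counts and one led by B cell genes are not described. *Gsr* and *Mgst1* were highest in Ly6c+ monocytes, *Prdx1* in Fabp5+ cells at 24 h and in the *Cxcl3 Arg1* cluster at 72 h, and *Slc7a11* in the *Cxcl3 Arg1* cluster at both times.

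**Figure D4:**
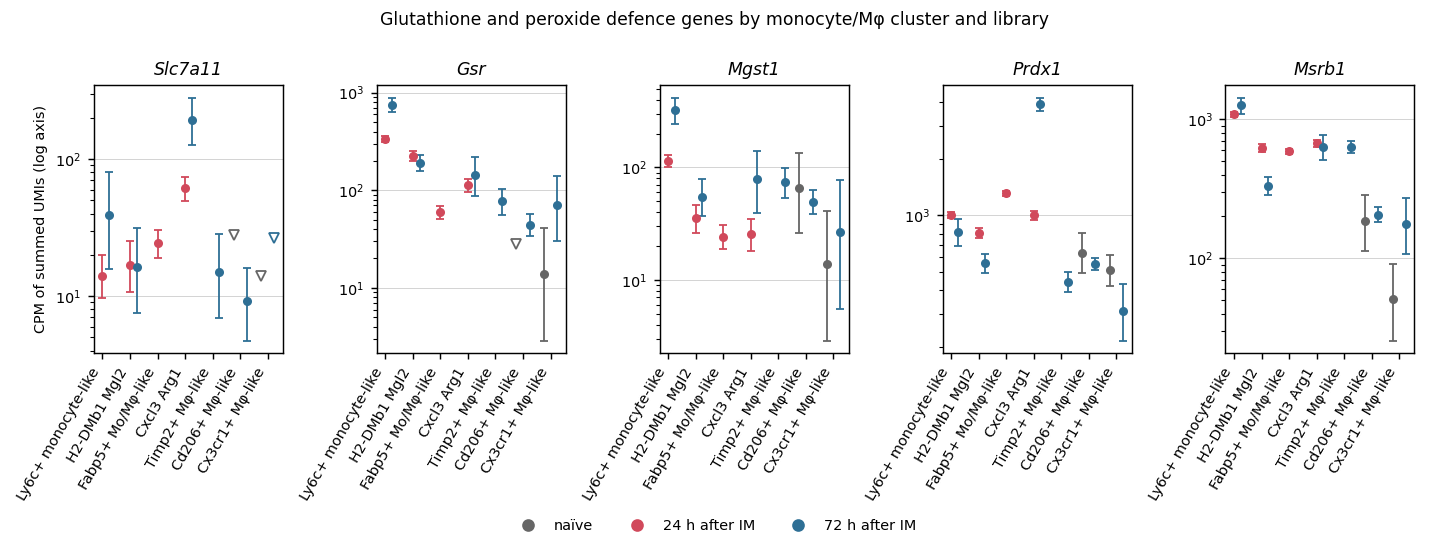
CPM of summed UMIs (log axis) of the 5 genes in 7 monocyte/Mφ clusters, by library, for groups of at least 20 cells, with exact 95% Poisson intervals; open triangles mark groups with 0 UMIs at the level of 3 UMIs. *Gsr* stood at 337 CPM in Ly6c+ monocytes at 24 h against 59.3 CPM in Fabp5+ cells, which had 1313 CPM of *Prdx1*.

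Ly6c+ monocytes, the cells that enter from the blood, had 337 CPM of *Gsr*, 115 CPM of *Mgst1* and 1089 CPM of *Msrb1* at 24 h (346 cells). Over the other monocyte/Mφ-like cells of that library *Gsr* was 2.99-fold higher (2.70 to 3.31), *Mgst1* 4.24-fold (3.50 to 5.15) and *Msrb1* 1.78-fold. At 72 h the same cluster had 29 cells with 752 CPM of *Gsr*, 323 CPM of *Mgst1* and 1259 CPM of *Msrb1*. These levels were 8.49-, 5.90- and 3.71-fold above those of the other monocyte/Mφ-like cells.

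Fabp5+ cells at 24 h (413 cells) showed the reverse, with *Prdx1* at 1313 CPM, 1.41-fold above the other monocyte/Mφ-like cells, and *Gsr* (59.3 CPM) and *Mgst1* (24.3 CPM) at ratios of 0.263 and 0.389. The *H2-DMb1* cluster (197 and 74 cells at 24 h and 72 h) had 226 and 192 CPM of *Gsr* and 805 and 556 CPM of *Prdx1*.

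Among the Mφ-like clusters of the naïve and 72 h libraries, levels of *Gsr* were low. Cx3cr1+ Mφs had 14.0 CPM of *Gsr* in the naïve library (69 cells) and 70.7 CPM at 72 h (20 cells). Their *Msrb1* was at 51.2 and 177 CPM, a 3.45-fold difference (1.58 to 7.98), their *Prdx1* at 512 and 309 CPM (ratio 0.604, 0.401 to 0.891), and they held no *Slc7a11* UMI. The *Gsr* levels of these Cx3cr1+ Mφs rested on 3 and 8 UMIs and those of *Msrb1* on 11 and 20. The B cell cluster taken as background had 29.4 and 60.9 CPM of *Msrb1* in the same libraries. Cd206+ Mφs had 0 *Gsr* UMIs in 32 naïve cells and 44.3 CPM at 72 h (248 cells), with *Msrb1* at 186 and 206 CPM and *Prdx1* at 633 and 554 CPM. Timp2+ Mφs at 72 h (126 cells) had 635 CPM of *Msrb1* and 443 CPM of *Prdx1*. In Cd206+ Mφs the 72 h ratios to the naïve level were 1.11 for *Msrb1* (0.703 to 1.84) and 0.876 for *Prdx1* (0.682 to 1.14), so neither differed beyond counting error.

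The *Cxcl3 Arg1* cluster had 61.1 CPM of *Slc7a11* at 24 h (49.5 to 74.7, 312 cells) and 194 CPM at 72 h (128 to 282, 38 cells), beside 9.2 to 39.0 CPM in the other clusters described at 72 h that held any. Its *Prdx1* was at 1000 CPM at 24 h and 3900 CPM at 72 h (3579 to 4242). One cell held 19.9% of the 72 h *Prdx1* UMIs, and without it the level was 3320 CPM.

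Most of the *Slc7a11* signal at both times, and of the *Prdx1* signal at 72 h, lay in a small group of cells. It separated at a lower clustering resolution, of 0.5 in place of 0.8. That group was led by *Mmp12*, *Cxcl3*, *AA467197* and *Slc7a11* and held 47 cells, 33 from 24 h and 14 from 72 h, of which 46 lay in the *Cxcl3 Arg1* cluster. At a resolution of 1.2 a group of 53 cells held all 47. In the 33 cells at 24 h *Slc7a11* was at 393 CPM (304 to 499), in 21 of 33 cells, and *Prdx1* was at 2603 CPM (2367 to 2857). Their *Gclm* was at 52.8, *Srxn1* at 88.0 and *Txnrd1* at 152 CPM. The Mφ receptor gene *Csf1r* was at 322 CPM and *S100a8* at 891 CPM.

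The 14 cells at 72 h, too few for a level, held 23 *Slc7a11* UMIs in 8 cells and 486 *Prdx1* UMIs in 13 cells, with 10 cells holding at least 10 each. The *Mmp12 Cxcl3* cells were 2.14% of monocyte/Mφ-like cells at 24 h and 2.43% at 72 h, yet held 28.8% and 33.8% of their *Slc7a11* UMIs and 4.67% and 22.8% of their *Prdx1* UMIs. Without them the *Cxcl3 Arg1* cluster had 22.0 CPM of *Slc7a11* at 24 h and 50.3 CPM at 72 h (4 UMIs), and 803 and 729 CPM of *Prdx1*. All monocyte/Mφ-like cells without them had 18.8 CPM of *Slc7a11* at 24 h (16.1 to 21.9) and 14.9 CPM at 72 h (10.9 to 19.9).

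A part of the *Gsr* and *Mgst1* signal was held by another small group. It separated at a resolution of 1.2 and was led by *Mgst1* and *Gm9733*. It held 78 cells, 4 naïve, 47 from 24 h and 27 from 72 h, of which 76 lay in the Ly6c+ cluster. At 24 h *Gsr* was at 733 CPM (637 to 839), *Mgst1* at 323 CPM (261 to 396) and *Msrb1* at 1382 CPM (1250 to 1525) in these cells. At 72 h they were at 797, 344 and 1245 CPM. The group was 3.05% of monocyte/Mφ-like cells at 24 h and 4.68% at 72 h and held 13.7% and 33.2% of their *Gsr* UMIs. Its shares of their *Mgst1* UMIs were 20.8% and 25.8%.

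The levels within the *Mgst1 Gm9733* group were close between 24 h and 72 h, whereas those of the whole Ly6c+ cluster were 2.23-fold (*Gsr*, 1.85 to 2.68) and 2.82-fold (*Mgst1*, 2.08 to 3.75) higher at 72 h. The 72 h Ly6c+ cluster had only 2 cells outside the group, against 301 at 24 h with 281 CPM of *Gsr* and 85.7 CPM of *Mgst1*. In the naïve library the 4 cells of the group held 20 of the 36 *Gsr* UMIs and 14 of the 31 *Mgst1* UMIs of all 140 monocyte/Mφ-like cells.

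Free neutrophil RNA was measured with *S100a8*, which was at 36971 CPM in neutrophil-like cells at 24 h and 56937 CPM at 72 h. In monocyte/Mφ-like cells it was at 20.2, 666 and 416 CPM and in B cell-like cells at 7.57, 189 and 194 CPM. Since monocytes can make *S100a8* themselves, an allowance for carried-over RNA based on it may be too high. It may also be too low, since it used the ratio of each gene to *S100a8* pooled over neutrophil-like cells. In the *Gstm1 Pdcd1lg2* cluster at 24 h *S100a8* was at 6364 CPM, beside 2074 CPM of *Slc7a11* and 6203 CPM of *Msrb1*. The B cell cluster, taken as background, had 87.3 CPM of *Msrb1* at 24 h against an allowance of 29.0 CPM. A level above the allowance thus does not tell own RNA from carried-over RNA. If all *S100a8* of a class had come from neutrophil RNA, that RNA would have brought 20.5 of the 25.9 CPM of *Slc7a11* in monocyte/Mφ-like cells at 24 h and 7.8 of the 22.1 CPM at 72 h. Ly6c+ monocytes at 24 h had 14.1 CPM of *Slc7a11*, under their allowance of 45.0 CPM. The *Cxcl3 Arg1* cluster had 61.1 CPM against 22.0 at 24 h and 194 CPM against 8.1 at 72 h. For *Msrb1* the allowance was 102 of 737 CPM in monocyte/Mφ-like cells, 29.0 of 150 CPM in B cell-like cells and 25.2 of 180 CPM in T cell-like cells at 24 h, and for *Gsr* it was 22.0 of 171 CPM in monocyte/Mφ-like cells. Outside neutrophil-like cells *Slc7a11* levels thus ranged from below this allowance to well above it, while those of *Msrb1* lay above it in each class and monocyte/Mφ cluster other than the *Siglecf Ptgs2* cluster. In that cluster, which has neutrophil markers itself, *Msrb1* at 72 h was at 1332 CPM against an allowance of 1665 CPM.

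**Figure D5:**
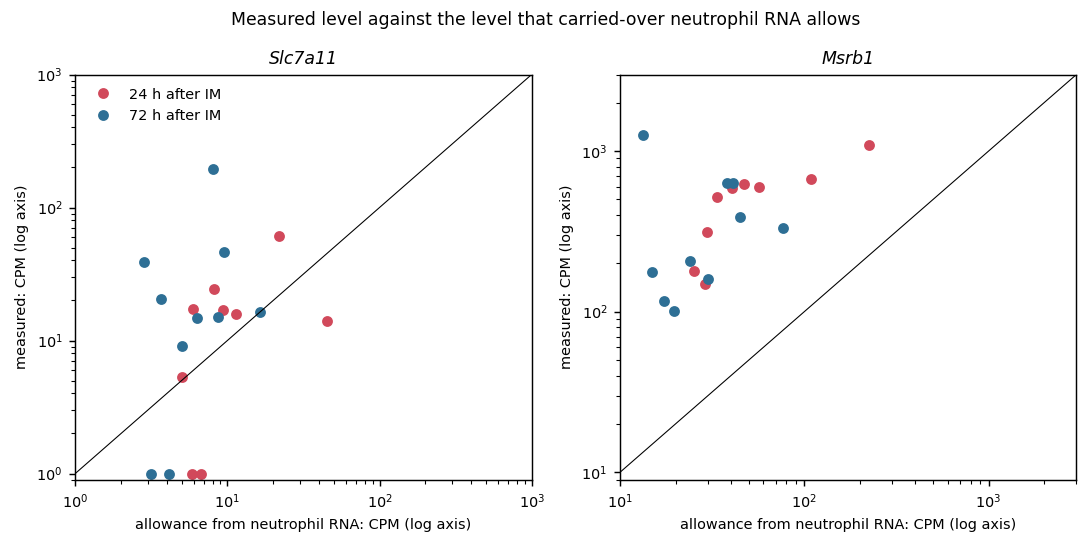
Measured CPM (vertical, log axis) against the CPM that neutrophil RNA would bring if all *S100a8* came from it (horizontal, log axis), for *Slc7a11* and *Msrb1* in the dendritic, T and B cell-like classes and each monocyte/Mφ cluster of at least 20 cells at 24 h and 72 h (the *Siglecf Ptgs2* cluster is not plotted); points on the lower edge of the *Slc7a11* panel are groups with 0 UMIs. *Slc7a11* in Ly6c+ monocytes at 24 h lies below the line of equal values (14.1 against 45.0 CPM), while *Msrb1* lies above the line in every group shown.

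Genes with the most similar pattern were sought over 30 groups of at least 20 cells (cell classes and monocyte/Mφ clusters by library) among 5820 genes, by Pearson correlation of log2(CPM + 10). The groups share libraries and cells, so the values are descriptions. *Slc7a11* was most like *Clec4e* (0.923), *Trem1* (0.920) and *Gpr84* (0.904), genes of receptors on activated myeloid cells. *Gsr* was most like *Mefv* (0.906), *Msrb1* (0.887) and *Trem3* (0.883), and *Msrb1* most like *Hp* (0.956), *Rac1* (0.954) and *Plek* (0.938). *Mgst1* was most like *Smox* (0.840), *Pla2g7* (0.829) and *C3* (0.802), and *Prdx1* most like *Lpl* (0.796), *Ccl24* (0.783) and *Ahnak2* (0.754). Among the members, *Slc7a11* and *Msrb1* (0.839) and *Slc7a11* and *Gsr* (0.803) ran together, whereas *Prdx1* reached 0.0843 to 0.405 with the others.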

How the data were processed

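Single-cell 3′ RNA-seq counts of CD45+ cells were used from 3 libraries (naïve, 24 h and 72 h after IM), grouped by the labels. The authors ran Cell Ranger 3.0.2 with the GRCm38/mm10 genome for alignment and UMI counting, and used Seurat to drop cells under 200 genes or above 10% mitochondrial content. The deposited values are raw UMI counts per gene and cell, and total UMIs were 1865221, 10542346 and 5246731. Strand use in counting is not given in the sources used here. Reads of 3′ libraries end near the transcript end, so levels of different genes were not compared.

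All deposited cells were kept, without removal of doublets. Cells were log-normalised and clustered with Seurat 5.3.0 in R 4.3.3 (2000 variable genes without members and pathway genes, 30 components, or 20 within monocytes/Mφs, 20 neighbours, resolution 0.8, no correction between libraries). A name needed at least 3 markers of a class, and it was withheld where another class had as many markers among the 10 leading genes. This tie rule, and a second round that named monocyte/Mφ clusters by their markers, were set after the clusters were seen. UMIs were summed per group, and CPM were given exact Poisson intervals, shares exact Clopper-Pearson intervals and ratios exact conditional intervals, computed in Python 3.11.15 (scipy 1.17.1, pandas 2.3.3, numpy 2.4.6). PCR duplicates were collapsed by UMI, and intervals cover counting error only. A difference was counted when CPM differed at least 2-fold among genes with a mean of at least 25 CPM (100 CPM for comparisons of clusters). Shares were also taken after thinning cells to 500 UMIs, or to 1500. Calculations were tested on simulated data.

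All 5 members were named throughout. Of each pathway list, up to 4 genes farthest apart, and abundant genes within 2-fold, could be named. Other features of clusters and the small groups found at other resolutions were singled out after their values were seen. The members and lists were chosen with earlier results of these data known. Alternatives covered doublet removal (Scrublet in scanpy 1.11.5), stricter cell filters, gates on markers, means over cells, other folds, filters and resolutions, and left-out cells.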

Additional observations from a re-analysis of the deposited data

Results flagged for a closer look

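The ratio of *Gsr* at 72 h over 24 h lay on opposite sides of 1 in different groups. *Gsr* was 2.23-fold higher at 72 h in the Ly6c+ monocyte-like cluster (1.85 to 2.68) and lower in dendritic cell-like cells, at a ratio of 0.324 (0.220 to 0.468), and in B cell-like cells, at 0.218 (0.0810 to 0.563). The 72 h Ly6c+ cluster was almost made up of the *Mgst1 Gm9733* monocytes (27 of 29 cells), in which *Gsr* was at 733 CPM at 24 h and 797 CPM at 72 h. The B cell value rested on 12 UMIs at 24 h, 9 of them in 1 cell, and all *Gsr* UMIs at both times lay in the dividing cells of that class. *Prdx1* was 3.90-fold higher at 72 h in the *Cxcl3 Arg1* cluster (3.53 to 4.30) and lower in all monocyte/Mφ-like cells, at 0.654 (0.624 to 0.685), a class that contains that cluster. Without the 47 *Mmp12 Cxcl3* cells the cluster had 803 CPM at 24 h and 729 CPM at 72 h. With 1 library per time point the differences between these groups were not tested.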

How the results depend on the processing

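No paired analysis was possible because each time point had 1 library, and for the same reason no replicate could be left out. Ratios lay on the same side of 1 under all 11 alternatives run for each, except *Mgst1* at 24 h over naïve monocyte/Mφ-like cells (main 0.794, range 0.731 to 1.13). With the highest cell left out, *Slc7a11* at 24 h over naïve was 3.97. Without the *Mgst1 Gm9733* monocytes, *Gsr* was 4.48 and *Msrb1* 4.26 at 24 h over naïve, 0.590 and 0.483 at 72 h over 24 h, and *Gsr* was 8.03 in neutrophil-like over monocyte/Mφ-like cells. As a mean over cells, the values at 24 h over naïve were 3.44 for *Gsr* and 1.75 for *Prdx1*, that of *Prdx1* at 72 h over 24 h was 0.716, and the ratios of neutrophil-like to monocyte/Mφ-like cells were 34.4 for *Slc7a11* and 8.20 for *Msrb1*. With a marker gate the 72 h over 24 h ratios were 0.524 for *Slc7a11*, 0.607 for *Gsr*, 1.13 for *Mgst1*, 0.563 for *Prdx1* and 0.461 for *Msrb1*, and the neutrophil ratios were 0.622 for *Prdx1* and 8.57 for *Msrb1*. With the stricter cell filter the neutrophil ratios were 3.32 for *Mgst1*, 0.248 for *Prdx1* and 6.59 for *Msrb1*. The cause of these moves was not tested. Counting members and both directions, 16 of 67 tested pathway genes were past 2-fold at 24 h over naïve, 36 past 1.5-fold and 4 past 3-fold. At 72 h over 24 h they were 6, 13 and 1 of 66. Of all genes tested, 9.17% were at least 2-fold higher and 7.82% lower at 24 h over naïve. At 72 h over 24 h these shares were 3% and 3.46%. Shares over all genes at 1.5-fold and 3-fold were not taken, so those counts have nothing to stand beside. Among these ratios and counts, 98 alternatives chosen at first and 54 added after seeing the data stayed within the main interval (for counts, within 1.5 times), and 19 and 6 did not. The 54 included adding the *Siglecf Ptgs2* cluster to neutrophil-like cells. That step could not alter the ratios between time points in monocyte/Mφ-like cells, so their agreement under it was fixed in advance. The wide interval of *Slc7a11* at 24 h over naïve covered 2.32 as a mean over cells. Of the shares of cells and the highest cluster levels, 19 of 20 and 11 of 20 left their interval. Alternatives that left out single cells, the *Mgst1 Gm9733* monocytes or clusters, and the finer cluster comparisons, were chosen after seeing the data. Shallow neutrophil-like cells limit single-cell shares: at 1500 UMIs per cell 84.1% of those kept at 24 h held *Slc7a11*, against 32% at 500 UMIs.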
